A study of Mus musculus with 6 samples.

Results

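The mitosis and G2-M genes are 35 genes chosen by name for their roles in mitosis: the kinase and cyclins of mitotic entry, mitotic kinases, spindle checkpoint, kinetochore, spindle motor and cytokinesis genes, with the proliferation markers Mki67 and Top2a. All 35 were found, each on 1 line, among the 24147 gene lines of the deposited tables. RNA was sequenced from the lens capsule and the lens epithelial cells attached to it, taken from wild type C57BL/6 mice 2 months old, in a mouse model of cataract surgery in which the fiber cells are removed through a cut in the cornea. One group of 3 libraries was collected directly after the operation (0 h) and the other group of 3 libraries 24 h after it. The groups share strain, genotype, age and operation, so the comparison is of time after surgery, and no unoperated eye was analysed here. The series calls the libraries biological replicates but the labels do not say how many animals or eyes went into each, so the p-values measure the spread between these libraries.

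A dividing cell copies its DNA in S phase, passes through G2 and then separates its chromosomes in mitosis. Transcripts of mitosis genes build up from late S phase, peak in G2 and mitosis and are shut down in resting cells, so their level in a tissue follows the share of its cells that are dividing. The lens epithelium of an adult holds mostly resting cells with a narrow band of dividing cells near the equator, and cells that stay on the capsule after cataract surgery can later divide and cloud it. In bulk tissue such as this, fewer dividing cells and less mitotic RNA per dividing cell cannot be told apart.

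Most of these genes carry a known promoter arrangement. The cell cycle genes homology region (CHR), with the letters TTTGAA, is bound by the DREAM complex in resting cells and by the MuvB complex with MYBL2 and FOXM1 in G2, and the CCAAT box is bound by NF-Y. RefSeq promoter windows of 300 bases (250 before to 50 after the start, GRCm38.p6, the build of mm10) were at hand for 30 of the 35 members, and both strands were searched for each exact motif, using the start site farthest upstream where a gene had several. TTTGAA was found in 23 of the 30 windows (76.7%), against 18.2% of all 27025 windows and 11.4% of the 10475 windows of genes tested here. It was found in 31 of 56 windows (55.4%) of other mitosis genes and in 4 of 43 (9.30%) of DNA replication genes. At least 1 CCAAT was found in 22 of the 30 (73.3%), against 38.0% of all windows, and both motifs in 19 (63.3%), against 7.16%. CCAAT was nearly as frequent in the windows of other mitosis genes (69.6%) and of DNA replication genes (62.8%), and both motifs were found in 44.6% and 6.98% of those. No TTTGAA match shared a base with a CCAAT match in the members' windows. The window at hand for Kif2c (chr4:117178723-117179022), which holds 1 TTTGAA, lies within the gene as deposited (117159633 to 117182624). A match is a description of the letters, not evidence of binding.

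The 250 bases before the start are shown for 7 members, in lower case with each TTTGAA and CCAAT match, on either strand, in capitals, written 5′ to 3′ along the gene. Cdk1, Cdc20, Ube2c, Top2a and Mki67 are shown as 5 of the 8 members that hold both motifs before the start (Ccnb2, Ect2 and Kif11 also do). Aurka and Spc25 are shown as the only members called lower at 24 h in the test given below (2 of 33 tested, beside 13.0% of all genes). The call of Aurka was lost when any 1 library was left out.
Cdk1 (chr10:69352913-69353162, minus strand): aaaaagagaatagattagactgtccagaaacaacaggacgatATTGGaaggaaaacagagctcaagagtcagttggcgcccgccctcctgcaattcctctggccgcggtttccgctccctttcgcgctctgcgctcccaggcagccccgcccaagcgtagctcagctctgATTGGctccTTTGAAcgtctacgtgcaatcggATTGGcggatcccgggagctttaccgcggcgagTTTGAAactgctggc
Cdc20 (chr4:118437344-118437593, minus strand): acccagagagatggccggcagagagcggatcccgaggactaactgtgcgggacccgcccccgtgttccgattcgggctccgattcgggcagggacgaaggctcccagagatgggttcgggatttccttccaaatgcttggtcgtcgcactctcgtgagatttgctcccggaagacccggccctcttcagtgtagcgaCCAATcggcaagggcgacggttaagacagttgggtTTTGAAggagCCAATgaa
Ube2c (chr2:164769679-164769928, plus strand): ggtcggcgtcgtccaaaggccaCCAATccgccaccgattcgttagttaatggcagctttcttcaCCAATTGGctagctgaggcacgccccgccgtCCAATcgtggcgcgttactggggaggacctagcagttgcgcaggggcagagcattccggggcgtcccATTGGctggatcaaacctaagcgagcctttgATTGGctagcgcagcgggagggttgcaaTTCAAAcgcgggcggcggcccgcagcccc
Top2a (chr11:99024190-99024439, minus strand): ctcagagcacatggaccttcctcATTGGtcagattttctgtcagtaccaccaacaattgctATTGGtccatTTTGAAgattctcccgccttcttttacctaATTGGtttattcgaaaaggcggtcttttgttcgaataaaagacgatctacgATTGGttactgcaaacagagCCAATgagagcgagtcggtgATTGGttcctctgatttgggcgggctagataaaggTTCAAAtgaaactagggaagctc
Mki67 (chr7:135716380-135716629, minus strand): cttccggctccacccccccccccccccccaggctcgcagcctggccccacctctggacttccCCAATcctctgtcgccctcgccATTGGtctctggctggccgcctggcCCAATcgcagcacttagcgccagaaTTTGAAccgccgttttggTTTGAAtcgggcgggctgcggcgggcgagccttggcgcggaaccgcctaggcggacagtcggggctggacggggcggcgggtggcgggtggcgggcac
Aurka (chr2:172370571-172370820, minus strand): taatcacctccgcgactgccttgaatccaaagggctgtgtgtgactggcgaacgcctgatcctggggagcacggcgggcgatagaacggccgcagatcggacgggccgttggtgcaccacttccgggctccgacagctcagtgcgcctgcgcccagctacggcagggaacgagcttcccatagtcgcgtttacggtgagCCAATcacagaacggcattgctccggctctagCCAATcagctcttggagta
Spc25 (chr2:69206214-69206463, minus strand): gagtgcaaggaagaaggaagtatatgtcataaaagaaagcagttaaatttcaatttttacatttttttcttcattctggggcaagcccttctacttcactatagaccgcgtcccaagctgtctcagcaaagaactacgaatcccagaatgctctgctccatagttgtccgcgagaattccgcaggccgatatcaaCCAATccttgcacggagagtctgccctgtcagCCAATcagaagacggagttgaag
Cdk1 holds 2 TTTGAA matches, the nearer one ending 9 bases short of the start, and 3 CCAAT matches, all read on the opposite strand. Cdc20 holds 1 TTTGAA and 2 CCAAT, and Mki67 2 TTTGAA and 3 CCAAT. Top2a and Ube2c hold 6 CCAAT matches each, and in Ube2c a pair of them on opposite strands overlap. In Aurka and Spc25 at most 50 bases lie between each of the 2 CCAAT matches and the start, and each gene's TTTGAA begins after the start (base 32 and base 24 past it), outside the stretch shown. The 2 members called lower thus share these letters with members that were not called.

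The 6 libraries held 8069314 to 10862573 counts each. Levels are given in CPM, the usual count scaled for library depth, adjusted between libraries by edgeR's TMM factors. A count of 3 corresponds to 0.301 to 0.384 CPM, and such limits cover counting error only, treating copied reads as separate molecules. The mitosis genes were rare transcripts: together they took 0.0113% to 0.0232% of a library's counts (915 to 2189 counts), and single members ranged from 0 to 34.7 CPM. Counts of markers called stand beside all 13956 genes tested, of which 15.2% were called higher and 13.0% lower at 24 h. All 12 lens epithelium markers searched were detected, led by the crystallins Cryaa and Cryab, with 7 called lower and 0 higher. They summed to 87873 to 147845 CPM at 0 h and 54806 to 68802 CPM at 24 h. Mean levels at 0 h and 24 h were 88070.5 and 46169.6 CPM for Cryaa and 25173.2 and 11496.5 CPM for Cryab. The sums thus mostly follow these 2 crystallins and do not measure the amount of epithelium. Of 13 lens fiber markers tested, led by Crybb2 and Cryba1, 10 were called lower, and the list summed to 37279 to 69770 CPM at 0 h and 18118 to 20344 CPM at 24 h. Markers of other cell types were present too. The 20 photoreceptor and retina markers, Gnat1 among them, summed to 2535 to 8076 CPM at 0 h and 1531 to 6666 CPM at 24 h, with 0 called by edgeR, DESeq2 or limma-voom (1 lower at an unadjusted p under 0.05). Retinal pigment epithelium markers, led by Rgr and Rlbp1, went from 166 to 282 CPM down to 78.0 to 80.3 CPM, with 5 of 9 lower and 1 higher. Melanocyte markers, led by Tyrp1 and Dct, summed to 208 to 277 CPM at 0 h and 122 to 1212 CPM at 24 h, with 3 of 7 tested higher and 1 lower.

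Corneal epithelium markers, led by Aldh3a1 and Perp and with Ly6d at 0, summed to 880 to 1220 and 564 to 911 CPM (3 of 7 higher, 1 lower). Those of corneal stroma, led by Ptgds and Ogn and with Kera at 0, summed to 1524 to 1782 and 829 to 2261 CPM (2 of 6 higher, 1 lower). Vascular markers, led by Kdr and Egfl7, summed to 32.8 to 54.7 and 35.9 to 62.3 CPM (2 of 8 higher, 0 lower). The 2 higher were Pecam1 and Cdh5, whereas Kdr and Egfl7 had log2 fold changes of -1.09 and -0.85 without a call. All 6 neutrophil markers tested were higher, and the 13 found, led by Itgam and Csf3r and with Elane at 0, summed to 6.71 to 17.0 CPM at 0 h and 98.2 to 186 CPM at 24 h. The 16 monocyte and macrophage markers, led by Lyz2 and Csf1r, summed to 86.0 to 195 and 127 to 238 CPM (4 of 15 higher, 4 lower). The 11 lymphocyte markers, led by Cd8a and Cd3d and with Cd3g at 0, reached at most 2.66 CPM in any library and none was tested. The 8 erythroid markers, led by Alas2 and Klf1 and with Hba-a1, Hba-a2 and Hbb-bt at 0, stayed at or under 8.82 CPM (1 of 1 tested higher).

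At 24 h the mitosis genes as a group had not moved beyond the spread between libraries. Of 33 members tested, 0 were called higher and 2, Aurka and Spc25, were called lower, whereas 15.2% of all 13956 genes tested were called higher and 13.0% lower (edgeR quasi-likelihood test, Benjamini-Hochberg adjusted p under 0.05 over all genes). At an unadjusted p under 0.05 the members counted 0 higher and 2 lower, where 39.9% of all genes passed in either direction, and DESeq2 and limma-voom also called 0 higher. Genes as rare as the members, with a mean of 0.910 to 21.8 CPM, were called higher in 12.3% and lower in 8.10% of 6786 cases. The other members, Cenpa and Ndc80, were under the low-count filter, at 0.601 to 1.503 CPM and 0.501 to 2.33 CPM. The 33 had a median log2 fold change of -0.17, beside -0.03 for all genes tested, with 10 members above 0 and 23 below, where 51.7% of all genes lay below 0. Leaving out 24 h replicate 3 took the members' median to -0.65, leaving out 0 h replicate 2 took it to -0.44, and leaving out 0 h replicate 1 took it to -0.0051.

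The intervals show how little these libraries can exclude. The standard errors (SE) of the log2 fold changes ran from 0.28 to 1.03 with a median of 0.51. The median was 0.23 for all genes tested and 0.36 for the 6786 tested genes of like level. The 95% interval of the change left out a 2-fold rise for 16 of the 33 members and a 2-fold fall for 8. Kif20a, the kinesin that carries passenger proteins to the midzone, was the only member for which it left out both (log2 fold change -0.10, interval -0.89 to 0.70).

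**Figure D1:**
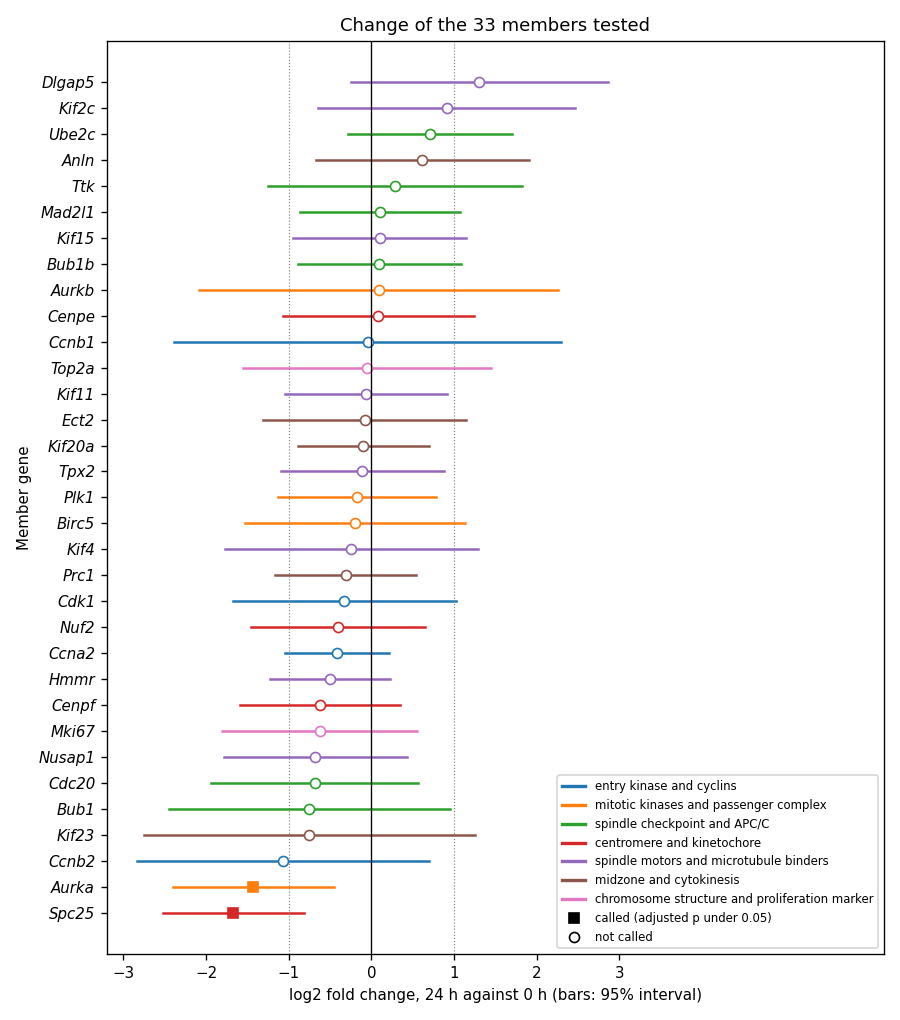
Log2 fold change of each of the 33 members tested, 24 h against 0 h (x axis), by gene (y axis), with 95% intervals from edgeR and colours for roles. Filled squares mark Aurka and Spc25, the 2 called members, and the intervals of the other 31 cross 0.

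The kinase and cyclins of mitotic entry were all below 0 in log2 fold change and none was called. Cdk1, the kinase that drives entry, stood at 5.71, 1.30 and 3.90 CPM in replicates 1 to 3 at 0 h and at 2.43, 1.81 and 4.44 CPM at 24 h (adjusted p = 0.724). Ccnb1, the cyclin B1 that activates it, had 2.51, 0.601 and 3.05 CPM at 0 h and 2.69, 0 and 3.28 CPM at 24 h. In each case replicate 2 was the lowest library of its time and the groups overlapped throughout. The 0 of Ccnb1 in 24 h replicate 2 allows up to 0.319 CPM. Ccnb2, the second B-type cyclin, had 2.71, 1.10 and 1.95 CPM at 0 h and 1.15, 0.106 and 1.48 CPM at 24 h (log2 fold change -1.07 ± 0.78 SE, interval -2.84 to 0.70). Ccna2, cyclin A2, which acts from S phase into G2, was higher and more even, at 10.8, 12.7 and 10.4 CPM at 0 h and 5.88, 8.71 and 10.8 CPM at 24 h (adjusted p = 0.305).

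Among the mitotic kinases Aurka was lower at 24 h. Aurka (chromosome 2, 172356190 to 172370570, mm10 as deposited), the Aurora A kinase that matures centrosomes and builds spindle poles, had 3.21, 2.71 and 3.78 CPM at 0 h and 1.02, 1.27 and 1.27 CPM at 24 h. All 24 h libraries lay below all 0 h libraries, a 2.69-fold fall (log2 fold change -1.43 ± 0.43 SE, adjusted p = 0.0375). The call rests on 122 counts over the 6 libraries and was lost when any 1 library was left out (adjusted p from 0.0747 to 0.148). It held in 4 of 15 alternative fits and was also lost with library totals only, without a low-count filter, with limma-voom, with the replicate block and against a 1.5-fold change, though over the 15 the log2 fold change held between -1.54 and -1.27. Plk1, the Polo-like kinase that acts with Aurka at entry, showed no such gap, at 2.51, 3.01 and 1.83 CPM at 0 h and 2.30, 2.23 and 2.01 CPM at 24 h (log2 fold change -0.17, interval -1.12 to 0.78). Aurkb and Birc5 form the chromosomal passenger complex, which corrects chromosome attachment. Aurkb had 2.20, 0.200 and 1.71 CPM at 0 h and 0.384, 0.637 and 3.28 CPM at 24 h, and Birc5 was likewise highest in 24 h replicate 3 (4.23 CPM, against 1.02 and 1.38 CPM in the other two). Neither was called.

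The spindle checkpoint and anaphase-promoting complex genes gave no call, and their summed level was nearly level with time, 20.5 ± 3.48 CPM at 0 h and 20.7 ± 2.85 CPM at 24 h (SD, n = 3 and 3). Ttk, Bub1, Bub1b and Mad2l1 hold cells before anaphase until chromosomes are attached. Cdc20 activates the complex and Ube2c is the enzyme that passes ubiquitin to its targets. Ube2c had 2.51, 1.30 and 2.07 CPM at 0 h and 3.71, 2.55 and 3.38 CPM at 24 h. Its 24 h libraries all lay above its 0 h libraries, by a small margin, and it was not called (log2 fold change 0.71 ± 0.44 SE, adjusted p = 0.267). Bub1b, like Cdc20, Aurka and Cenpa, was highest at 24 h in replicate 2, at 12.5 CPM where replicates 1 and 3 had 5.24 and 4.02 CPM, with 5.86 to 7.41 CPM at 0 h. Ttk, Bub1, Mad2l1 and Cdc20 had log2 fold changes from -0.75 to 0.29 with overlapping groups.

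In the kinetochore, where spindle fibers hold the chromosome, Spc25 was called lower and its partners were not. Spc25 (chromosome 2, 69193895 to 69206190), a subunit of the NDC80 complex, had 15.03, 10.5 and 7.56 CPM at 0 h and 4.73, 3.29 and 2.43 CPM at 24 h. The groups did not overlap, and the fall was 3.18-fold (log2 fold change -1.67 ± 0.37 SE, adjusted p = 0.0113). It was called in 14 of 15 alternative fits (adjusted p from 0.000409 to 0.0526) and was lost without 0 h replicate 1 (log2 fold change -1.35, adjusted p = 0.0526). Nuf2, a subunit of the same complex, had 4.91, 2.91 and 6.47 CPM at 0 h and 2.43, 2.76 and 5.498 CPM at 24 h (adjusted p = 0.558), and Ndc80 itself was too rare to test. Spc25 also followed a library order of its own: at both times it was lowest in replicate 3, the library in which Nuf2 and Ndc80 were highest. Per kilobase of gene length its mean level was 6.98 CPM at 0 h and 2.20 CPM at 24 h, beside 1.98 and 1.48 CPM for Nuf2 and 0.446 and 0.558 CPM for Ndc80. Cenpf, a large kinetochore protein of G2 and mitosis, had 17.3, 5.41 and 10.98 CPM at 0 h and 7.29, 5.20 and 9.41 CPM at 24 h. Cenpe, a kinetochore motor, ranged from 1.71 to 5.91 CPM with no call, and Cenpa, the histone that marks centromeres, stayed at or under 1.503 CPM.

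None of the 8 spindle motors and microtubule binders was called. Kif11 pushes spindle poles apart, with Kif15 in support, Kif4 acts on chromosome arms and Kif2c removes tubulin from fiber ends. Tpx2 activates Aurora A on the spindle, and Nusap1, Hmmr and Dlgap5 bundle or anchor its fibers. Their log2 fold changes ran from -0.68 for Nusap1 to 1.31 for Dlgap5. Dlgap5 had 1.00, 0.401 and 1.83 CPM at 0 h and 1.66, 1.70 and 4.55 CPM at 24 h, with adjusted p = 0.191. Hmmr was the one member of the group without overlap, at 7.01, 6.41 and 6.59 CPM at 0 h and 5.24, 3.29 and 5.60 CPM at 24 h, without a call (log2 fold change -0.50 ± 0.32 SE, adjusted p = 0.280). In all, the groups did not overlap for 4 of the 33 members tested, Aurka, Spc25, Ube2c and Hmmr, against 44.7% of all genes tested.

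Genes of the midzone and cytokinesis had a nearly equal mean summed level at both times, 26.6 ± 9.53 CPM at 0 h and 26.5 ± 14.2 CPM at 24 h. Anln, anillin, which scaffolds the contractile ring, had 7.41, 3.31 and 7.81 CPM at 0 h and 5.24, 4.78 and 18.3 CPM at 24 h. A single library, 24 h replicate 3, stood above the other five. Ect2, which switches on the ring, and Kif23, a midzone motor, were also lowest in replicate 2 and highest in replicate 3 at 24 h, with 2.12 and 7.40 CPM for Ect2 and 0.212 and 2.85 CPM for Kif23. Prc1, which bundles midzone fibers, ranged from 4.35 to 11.5 CPM with no call.

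Mki67 and Top2a, the most used proliferation markers, varied more within a time than between times. Mki67 (chromosome 7, 135689788 to 135716379), which coats mitotic chromosomes, had 33.6, 11.2 and 34.7 CPM at 0 h and 13.2, 8.39 and 29.7 CPM at 24 h. Top2a (chromosome 11, 98992947 to 99024189), the topoisomerase that untangles DNA, had 18.0, 5.61 and 29.0 CPM at 0 h and 9.98, 7.33 and 33.2 CPM at 24 h. For both genes replicate 2 was the lowest library at each time, and 24 h replicate 3 stood with the higher 0 h libraries. Top2a had a log2 fold change of -0.05 (interval -1.55 to 1.45, adjusted p = 0.965) and Mki67 of -0.63 (interval -1.81 to 0.56, adjusted p = 0.412).

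The same libraries stood apart for most members. At 0 h replicate 2 was the lowest library for 28 of the 35 members (80.0%), and at 24 h replicate 3 was the highest for 28 of the 35 (80.0%). Both held for 24 members (68.6%). Among the 6786 tested genes of like level, 0 h replicate 2 was the lowest for 29.5% and 24 h replicate 3 the highest for 29.0%. The summed level of the 35 members was 219, 120 and 212 CPM at 0 h and 117, 111 and 227 CPM at 24 h, so that 24 h replicate 3 stood with the 2 higher 0 h libraries and 0 h replicate 2 with the 2 lower 24 h libraries. Without Mki67 and Top2a the sums were 168, 103 and 148 CPM at 0 h and 93.9, 95.05 and 164 CPM at 24 h, in nearly the same order. Among 70 other mitosis genes that are not members, 0 h replicate 2 was the lowest for 43 and 24 h replicate 3 the highest for 51.

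**Figure D2:**
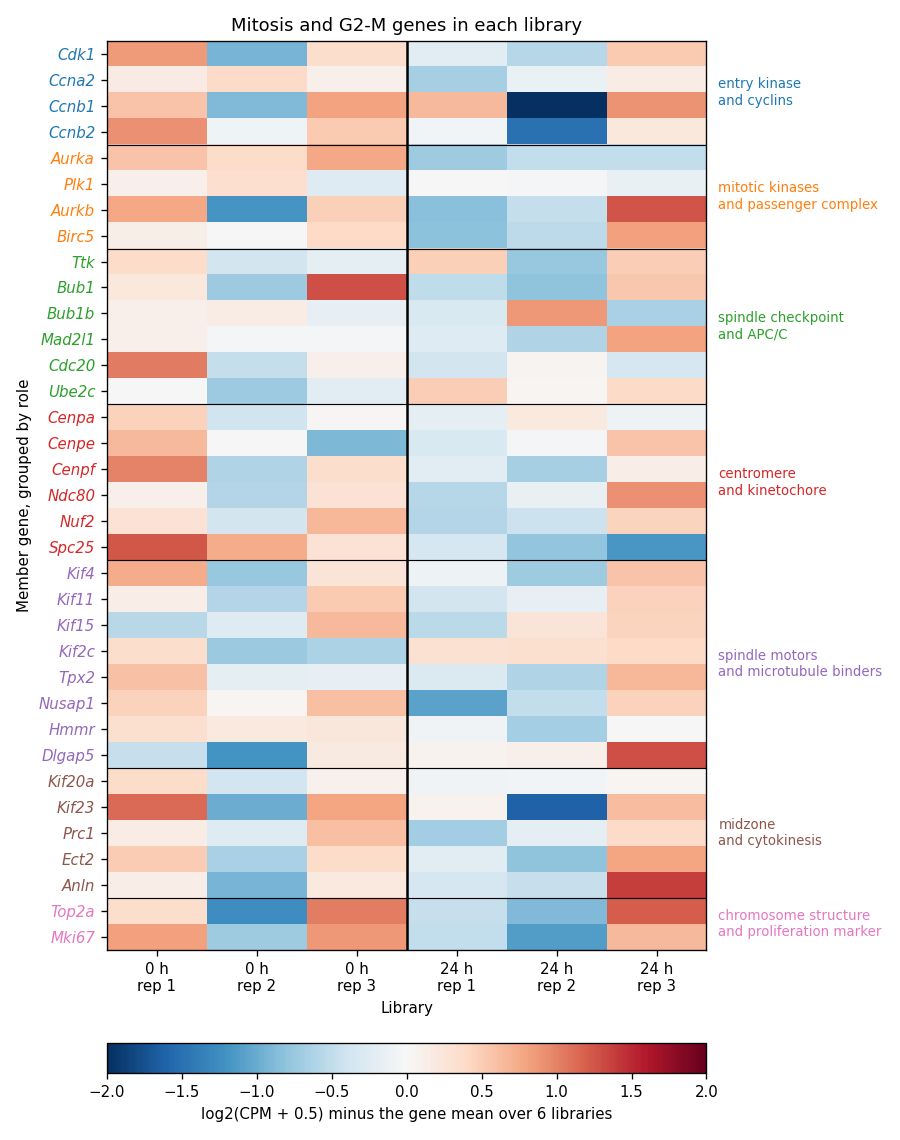
Level of each member in each library (columns), as log2(CPM + 0.5) minus the gene's mean over the 6 libraries, with rows grouped by role. Blue columns mark the libraries with low mitosis genes (0 h replicate 2, 24 h replicates 1 and 2), and 24 h replicate 3 is mostly red. Of the 35 members, 24 were lowest at 0 h in replicate 2 and highest at 24 h in replicate 3. Spc25, Bub1b, Plk1, Ccna2 and Aurka are among those that depart from that order.

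Some tissue markers followed part of this order. Photoreceptor and retina markers summed to 4887, 8076 and 2535 CPM in replicates 1 to 3 at 0 h and to 4005, 6666 and 1531 CPM at 24 h. They were thus highest in replicate 2 and lowest in replicate 3 at each time, and none of the 20 had its lowest 0 h value in replicate 2. Mki67 and Top2a were lowest in replicate 2 at each time. At 24 h 16 members were lowest in replicate 1 and 16 in replicate 2. The summed member level in those 2 libraries was 117 and 111 CPM, beside photoreceptor sums of 4005 and 6666 CPM. Of the 12 lens epithelium markers, 11 were lowest in replicate 2 at 0 h and 10 were highest in replicate 3 at 24 h. Of the 14 lens fiber markers, 13 were likewise lowest in replicate 2 at 0 h, and 5 were highest in replicate 3 at 24 h. The neutrophil sum was also highest in 24 h replicate 3, at 186 CPM, though only 5 of the 13 neutrophil markers found were highest there. With the mean log2 level of the photoreceptor list as a covariate, the members' median log2 fold change was -0.62 and 3 members were called lower, against 15.1% of all genes in that fit. The third was Mki67, with a log2 fold change of -1.16 (adjusted p = 0.0163). With 6 libraries that fit leaves few degrees of freedom, and the part of tissue makeup in the differences between libraries was not tested further.

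Some genes of DNA replication, which comes one step earlier in the cycle, rose. The list has 55 genes, of which 54 were tested; 15 rose (27.8%, beside 15.2% of all genes) and 0 fell (13.0% of all genes). The median log2 fold change was 0.79, and 0.34 without 24 h replicate 3, and at an unadjusted p under 0.05 the counts were 20 and 0. DESeq2 called 16 higher and limma-voom 14, and both called 0 lower. The replicative helicase was prominent: Mcm3 went from 9.12, 6.01 and 13.3 CPM at 0 h to 32.6, 22.9 and 65.0 CPM at 24 h, and Mcm6 from 6.71, 6.51 and 11.5 CPM to 27.6, 26.8 and 58.5 CPM. Cdt1, which loads that helicase, rose 3.32-fold (adjusted p = 0.00497), and the sliding clamp Pcna 2.08-fold (adjusted p = 0.00401). For these 4 genes all 24 h libraries were above all 0 h libraries. All 15 that rose were highest in 24 h replicate 3, and without 0 h replicate 2 the count fell to 7. Ccne1, the cyclin of the G1-to-S step, had 1.90, 1.30 and 2.44 CPM at 0 h and 2.30, 1.70 and 6.24 CPM at 24 h, short of a call (adjusted p = 0.309).

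The ratio of mitosis to DNA replication transcripts is only a description. In its denominator list 15 genes were called higher and 0 lower. For each 100 CPM of DNA replication transcripts the mitosis members made up 31.2, 21.5 and 29.2 CPM at 0 h and 13.8, 13.8 and 15.9 CPM at 24 h, with no overlap. Without Mki67 and Top2a the figures were 23.9, 18.5 and 20.4 CPM at 0 h and 11.1, 11.9 and 11.5 CPM at 24 h, and those of the 70 other mitosis genes were 124 to 130 CPM at 0 h and 63.2 to 88.0 CPM at 24 h. The denominator moved more than the numerator, since the replication genes summed to 703, 559 and 725 CPM at 0 h and to 847, 802 and 1425 CPM at 24 h. As members and lists were chosen with results known, no test is given for this ratio. For single genes the groups did not overlap in 44.7% of all genes tested.

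**Figure D3:**
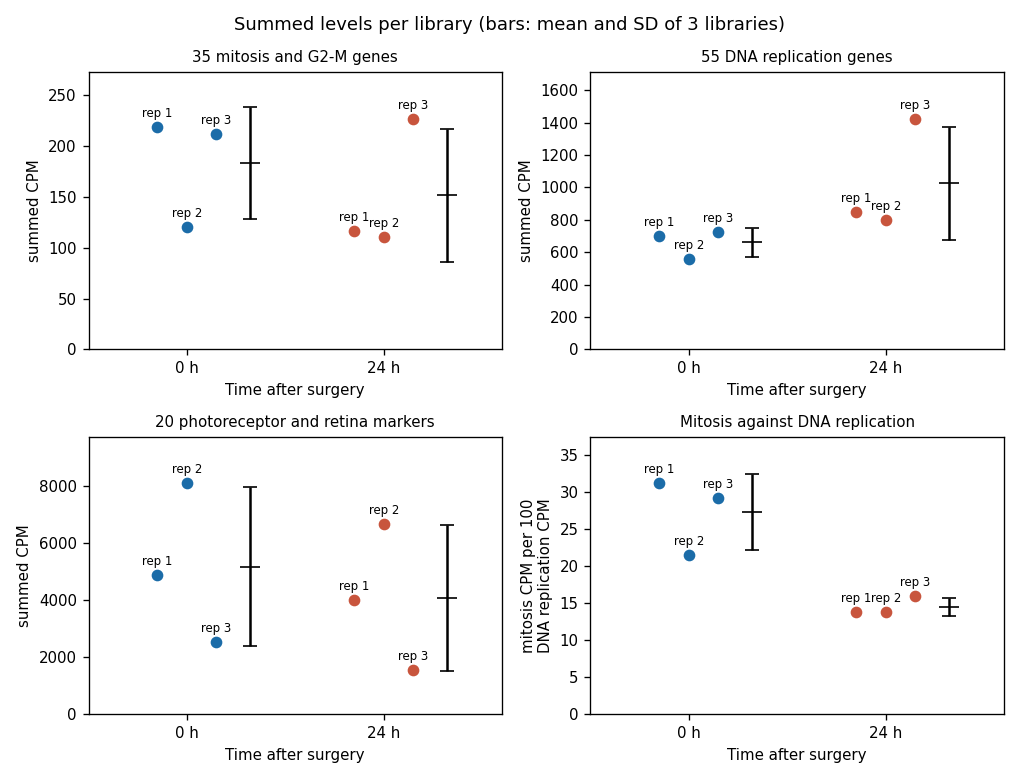
Summed CPM per library (y axes) at 0 h and 24 h (x axes) of the 35 mitosis genes, 55 DNA replication genes and 20 photoreceptor and retina markers, and mitosis CPM per 100 replication CPM, each point a library, bars the mean and SD of 3. Mitosis sums overlap between times (111 to 227 CPM). The ratio is 21.5 to 31.2 at 0 h and 13.8 to 15.9 at 24 h, and in its denominator list 15 genes were called higher and 0 lower.

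Of 56 further mitosis genes tested, listed apart from the members, 4 were higher (7.14%) and 1 lower (1.79%), beside 15.2% and 13.0% of all genes. The higher ones were Cdc25a, a phosphatase that activates cyclin-dependent kinases, the kinetochore gene Zwint, the cytokinesis kinase Cit and the lamin gene Lmnb1. Zwint had 78.6, 55.01 and 67.2 CPM at 0 h and 132, 120 and 139 CPM at 24 h (adjusted p = 0.00286), and Lmnb1 rose 1.98-fold. Spag5, a spindle protein, fell 5.46-fold, from 138, 116 and 156 CPM to 24.4, 21.7 and 28.9 CPM (adjusted p = 5.71e-05). Only Zwint and Lmnb1 stayed higher without 0 h replicate 1, without 0 h replicate 3 or without 24 h replicate 3.

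Of 22 factors that switch mitotic promoters on or off, 3 were higher and 3 lower (13.6% each), near the 15.2% and 13.0% of all genes. Foxm1, the activator of G2 genes, had 6.51, 3.81 and 8.05 CPM at 0 h and 6.39, 5.42 and 14.2 CPM at 24 h (adjusted p = 0.437), and Mybl2, its partner in the MuvB complex, had 2.81, 3.21 and 4.64 CPM and then 1.79, 2.23 and 5.18 CPM (adjusted p = 0.805). Both again had their highest value in 24 h replicate 3. Rbl2, the pocket protein p130 of the DREAM complex, fell 1.99-fold (adjusted p = 0.00458), Tfdp2, a partner of E2F factors, fell 2.85-fold, and Lin52, a MuvB subunit, was the third called lower. The call of Lin52 was lost with library totals only, without a low-count filter, with the replicate block and with the photoreceptor covariate. It was also lost against a 1.5-fold change and without any 1 library. That of Rbl2 was lost only against a 1.5-fold change. E2f4, Tfdp1 and Nfya, a subunit of NF-Y, were higher, and 0 to 2 factors were called higher when 1 library was left out.

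Of 21 brakes on the cycle tested, 9 were higher (42.9%, beside 15.2% of all genes) and 2 lower (9.52%, beside 13.0%). Cdkn1a, the inhibitor p21, went from 1.503, 2.505 and 1.34 CPM at 0 h to 31.3, 72.6 and 26.8 CPM at 24 h, and Trp53, which encodes p53, rose 2.54-fold. The growth arrest genes Gadd45a, Gadd45b and Gadd45g and Sfn, a 14-3-3 protein that holds cells in G2, were all higher. So were the kinase genes Chek1 and Pkmyt1, which restrain Cdk1, and Cdkn2b. The call of Chek1 was lost with limma-voom, with the photoreceptor covariate, against a 1.5-fold change and without any 1 of the 0 h libraries or 24 h replicate 3. That of Pkmyt1 was lost against a 1.5-fold change and without any 1 library other than 24 h replicate 1. Cdkn1c, the inhibitor p57, fell 3.27-fold and Cdkn1b, the inhibitor p27, was the other lower gene (1.34-fold). The call of Cdkn1b was lost with library totals only, without a low-count filter, with DESeq2 and with the photoreceptor covariate. It was also lost against a 1.5-fold change and without any 1 library. Without 24 h replicate 3 the lower brakes were Cdkn1c, Cdkn2c and Btg1. Cdkn1a, Sfn and the Gadd45 genes were highest in 24 h replicate 2. Chek1 (2.30, 2.97 and 8.25 CPM in replicates 1 to 3 at 24 h) and Pkmyt1 (2.94, 4.89 and 6.24 CPM) were highest in 24 h replicate 3. Whether these brakes act on the mitosis genes was not tested.

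**Figure D4:**
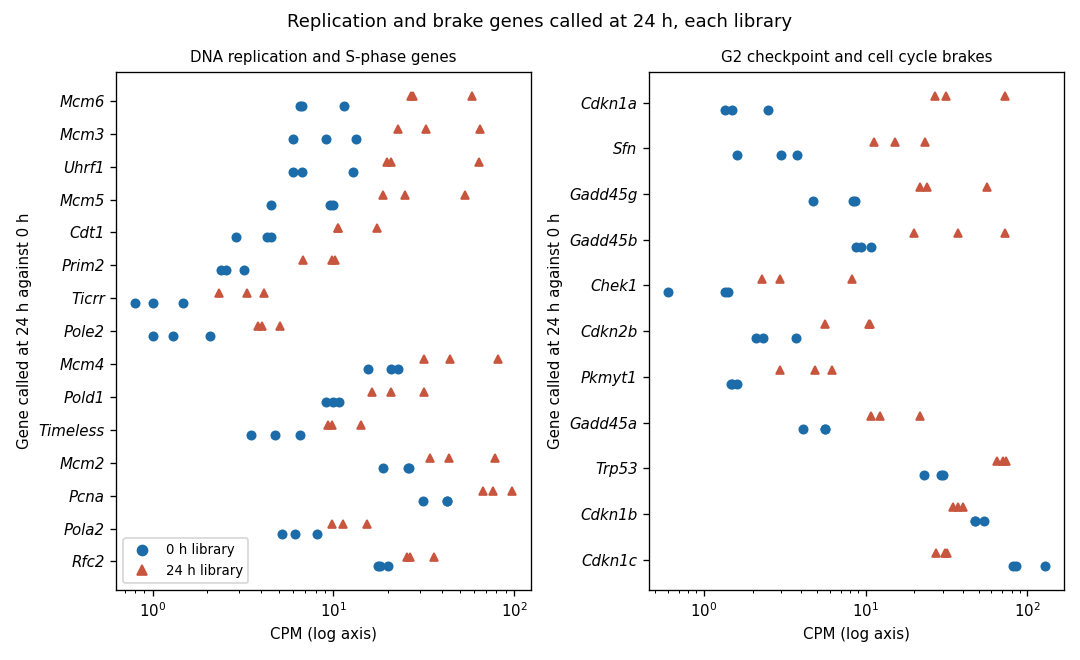
CPM on a log axis (x) of the 15 DNA replication genes and 11 brake genes called at 24 h against 0 h (y), each point a library. The 24 h libraries (triangles) lie right of the 0 h libraries (circles) for all but Cdkn1b and Cdkn1c, which lie left.

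Of 7 G1 genes tested, 3 were higher and 0 lower, beside 15.2% and 13.0% of all genes, and at an unadjusted p under 0.05 the counts were 4 and 3. Myc, a transcription factor of growth, went from 3.81, 7.41 and 4.51 CPM at 0 h to 44.4, 52.4 and 33.9 CPM at 24 h, and the G1 kinases Cdk4 and Cdk6 rose 1.70-fold and 2.62-fold. Ccnd1, cyclin D1, had 274, 373 and 328 CPM at 0 h and 158, 246 and 237 CPM at 24 h and narrowly missed the threshold (log2 fold change -0.60 ± 0.21 SE, adjusted p = 0.0578). It was called lower by DESeq2 (adjusted p = 0.0263), by limma-voom (adjusted p = 0.0493) and with the replicate number as a block (adjusted p = 0.0101).

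Compared per kilobase of deposited gene length, the highest mean levels at 0 h were those of Spc25, Ccna2, Top2a and Mad2l1, at 6.98, 4.02, 3.37 and 3.10 CPM per kilobase. At 24 h they were those of Ube2c, Mad2l1, Top2a and Ccna2, at 3.45, 3.34, 3.23 and 3.01 CPM per kilobase, and Spc25 was not among them. Mki67, the highest in CPM, came to 2.63 CPM per kilobase at 0 h and 1.70 at 24 h. Over the 6 libraries the SD was 2.24 CPM per kilobase for Top2a, 1.26 for Mad2l1, 0.938 for Ube2c and 0.833 for Ccna2, so the order among these 4 at 24 h does not hold beyond their spread. Of the 35 members 7 overlap another protein-coding gene (Ccna2, Cdc20, Ube2c, Kif4, Nusap1, Kif20a and Prc1, in GENCODE M21), and as the strand setting of the counting is not given their counts may be incomplete or shared. Among the called genes of the other lists Cdk4, Cdt1, Rbl2, Pkmyt1, Pole2, Rfc2 and Ticrr also do. Aurka, Spc25, Mki67 and Top2a overlap no other coding gene.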

How the data were processed

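The mitosis genes and the lists around them were chosen with earlier results of these data known, so none of them is independent support. Each library's file, as the authors deposited it, holds a raw count and an RPKM value per gene, per the file headers. RPKM as deposited is the count divided by gene length and library total; it was not tested. The submitters' processing notes name Trim Galore 0.4.4, TopHat2 2.1.0, HTSeq 0.6.1p1, edgeR 3.16.5 and mm10, with roles, annotation and strand setting not given in the sources used. Lengths seem to include untranslated exons, since 37.7% are multiples of 3. Here filterByExpr kept 13956 genes, TMM scaled the libraries, and edgeR 4.0.16 (R 4.3.3, quasi-likelihood, two-sided, no covariate) compared 24 h with 0 h over all genes, checked on simulated data. SE is the log2 fold change divided by the root of the F statistic, and 95% intervals use its degrees of freedom. All 35 members could be named, and from each of 5 pathway lists the 3 genes with the lowest p, a set list (Foxm1, Mybl2, Cdkn1a, Mcm2 to Mcm6, Pcna, Ccnd1, Ccne1), and the 2 most abundant markers of each cell type were named. Other list genes were named after their values were seen, and a marker that the rule would name is not reported here. Alternatives were DESeq2 1.42.0, limma-voom (limma 3.58.1), other scaling and filters, a 1.5-fold threshold, a replicate block, a photoreceptor covariate and each library left out.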

Additional observations from a re-analysis of the deposited data

How the results depend on the processing

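The members counted 0 higher in all 15 alternatives. The count of 2 lower became 1 (Spc25) with library totals only, without a low-count filter, with limma-voom, against a 1.5-fold change and with the replicate block, 3 with the photoreceptor covariate, and 0 to 1 when 1 library was left out. Over all genes the counts fell to 1060 higher and 629 lower against a 1.5-fold change, and to 1551 to 1897 higher and 1041 to 1648 lower with 1 library left out. Against a 1.5-fold change the count of higher genes was 7 for DNA replication, 2 for other mitosis genes and 0 for promoter factors, and the lower counts were 1 for promoter factors and 1 for brakes. The lower count of other mitosis genes was 4 with DESeq2, 2 with limma-voom, 2 with the replicate block and 3 with the photoreceptor covariate. The lower count of brakes was 1 with library totals only, without a filter and with DESeq2. The lower count of G1 genes was 1 with DESeq2, limma-voom or the photoreceptor covariate and 3 with the replicate block. With 1 library left out the ranges were 7 to 13 higher replication genes, 2 to 5 higher and 1 to 2 lower other mitosis genes, 0 to 2 higher promoter factors and 1 to 3 lower brakes. The members' median log2 fold change ran from -0.65 to -0.0051 with 1 library left out.

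Same-numbered libraries deviated together with correlations across genes of 0.093, 0.232 and 0.423, and 24 h replicate 1 correlated best with 0 h replicate 2, so the numbers were not taken to pair the libraries. With the replicate block 2315 genes were higher and 2174 lower.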
